A study of Mus musculus with 6 samples.

Results

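The IL-1 and IL-18 receptor family was followed here in regulatory T cells (Tregs) with and without the zinc finger protein Zfp335. The 9 genes of the family (Il1rl1, Il18r1, Il18rap, Il1r1, Il1r2, Il1rl2, Il1rap, Sigirr and Myd88) were chosen by symbol and by presence in the deposited count table, where each had 1 row among 13709, from a list drawn up with the KO against WT values of these samples known. RNA of CD4+ T cells sorted for YFP and CD25 was sequenced in bulk from 2-week-old C57BL/6 mice, with 3 WT and 3 KO samples. WT denotes Foxp3Cre mice, and KO denotes Foxp3Cre Zfp335fl/fl mice in which both copies of Zfp335 are flanked by loxP sites. Both groups therefore carried the same Cre-YFP driven by Foxp3, so that YFP marks cells that express Foxp3 and Zfp335 is removed once a cell expresses Foxp3. The labels name lymph nodes in one place and spleen in another. They do not say whether a sample was 1 animal or a pool, so the p-values measure the spread between these samples. The study describes early lethal autoimmunity in these KO mice. It ascribes their Treg signature changes to inflammation, since most such genes were about equal in heterozygous females without it. Loss of Zfp335 within the cell and an inflamed host cannot be told apart in these samples.

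Receptors of this family sit in the membrane, and those that signal share a domain in the cytoplasm, the TIR domain. A ligand-binding chain first takes up its cytokine: IL1R1 binds IL-1, ST2 (encoded by Il1rl1) binds IL-33, IL1RL2 binds IL-36 and IL18R1 binds IL-18. A coreceptor then joins, IL1RAP for the IL-1, IL-33 and IL-36 receptors and IL18RAP for the IL-18 receptor, and the paired TIR domains recruit the adaptor MYD88, which leads to IRAK kinases, TRAF6 and NF-kappaB. IL1R2 is a decoy that binds IL-1 without signalling, and SIGIRR is a receptor-like inhibitor of these pathways. In tissue Tregs ST2 is known as a marker of a subset that expands to IL-33 and makes amphiregulin.

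Both chains of the IL-18 receptor, the IL-36 and IL-33 receptors and the shared adaptor were higher in KO Tregs, and no family member was called lower. Calls were made with edgeR's quasi-likelihood test at a fold beyond 1.5, an unadjusted p under 0.05 and an adjusted p, over all genes tested, under 0.1. By this rule 5 of the 9 members were called (55.6%), all of them higher, against 24.4% of the 13594 genes tested (11.9% higher and 12.5% lower). The 5 were Il18rap, Il1rl2, Il18r1, Il1rl1 and Myd88, and Il1r1, Il1rap, Il1r2 and Sigirr were not called. Sigirr was lower in every KO sample and missed the fold cutoff alone, at 1.47-fold, where Myd88 passed it at 1.54-fold. Without WT3, a sample that stood apart, 6 members were called, Il1r1 in addition, where 26.8% of 13663 genes were called. The median log2 fold change was 0.63 over the 9 members and -0.04 over all genes tested. Since the list was drawn up with those values known, the members' counts, fold changes and p-values describe the family and are no independent evidence of its direction. Every KO sample lay above every WT sample for 5 members and below for 1, beside 26.2% and 27.6% of all genes. Levels below are CPM, counts scaled to a common library size with edgeR's TMM factors. In bulk RNA, fewer cells of a type and less RNA per cell cannot be told apart.

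The targeted gene and the sort were checked first. Zfp335 read 101, 94.3 and 103 CPM in WT1 to WT3 and 37.0, 37.9 and 40.2 CPM in KO1 to KO3 (log2 fold change -1.37 with an SE of 0.07, adjusted p by edgeR = 2.14e-05), so each sample matched its genotype, although reads of the antisense gene Zfp335os that overlaps it may be included. Foxp3 averaged 857 ± 292 CPM in WT and 465 ± 6.48 CPM in KO (SD, n = 3) and was called lower, though not without WT3 (log2 fold change -0.88 and -0.57). Ikzf2, the Helios gene, was called lower too (log2 fold change -1.11), the second of 6 Treg and T cell markers, and Cd4, Cd3e, Il2ra and Ctla4 were well detected in both groups, with the lowest group mean at 338 CPM (Cd3e in KO). Total counts ran from 32032631 to 40728419 per sample. WT3 stood apart from the other WT samples, with a median squared difference 25.8 and 26.3 times the sampling noise against WT2 and WT1, where WT1 and WT2 differed by 10.1 times and KO pairs by 5.27 to 6.07 times. WT against KO pairs differed by 46.2 to 53.0 times. Family and pathway genes whose call turns on WT3 are given below with and without it.

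Il18rap and Il1rl2, the 2 members with the largest fold changes over all 6 samples, and Il1rl1, the ST2 gene, lie within 1 receptor gene cluster on chromosome 1, and the 250 bases before their RefSeq start sites (build GRCm38.p6, the same coordinates as mm10) are shown for that reason. Il1rl1 has start sites far apart in RefSeq, so 2 windows are given for it. Capitals mark matches on either strand to a GATA motif (AGATAA) or a RUNX motif (TGTGGT). Only these exact letters were searched. Variants such as TGATAA, which stands in the Il18rap window and the first Il1rl1 window, were not marked or counted.
Il18rap, chr1:40515112-40515361, plus strand: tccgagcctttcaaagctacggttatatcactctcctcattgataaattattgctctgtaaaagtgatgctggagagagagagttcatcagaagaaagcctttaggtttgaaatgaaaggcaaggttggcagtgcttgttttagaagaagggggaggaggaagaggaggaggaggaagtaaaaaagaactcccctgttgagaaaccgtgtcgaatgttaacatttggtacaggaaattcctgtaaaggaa
Il1rl2, chr1:40324339-40324588, plus strand: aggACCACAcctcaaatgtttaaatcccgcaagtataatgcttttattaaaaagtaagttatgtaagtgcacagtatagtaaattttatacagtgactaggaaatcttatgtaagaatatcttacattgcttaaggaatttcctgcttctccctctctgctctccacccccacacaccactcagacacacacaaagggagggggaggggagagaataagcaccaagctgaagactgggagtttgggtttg
Il1rl1, chr1:40429320-40429569, plus strand: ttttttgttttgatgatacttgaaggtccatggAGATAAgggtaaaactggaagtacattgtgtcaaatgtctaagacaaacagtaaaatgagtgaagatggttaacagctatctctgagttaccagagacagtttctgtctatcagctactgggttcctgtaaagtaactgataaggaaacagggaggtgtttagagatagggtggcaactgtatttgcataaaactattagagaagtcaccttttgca
Il1rl1, chr1:40439379-40439628, plus strand: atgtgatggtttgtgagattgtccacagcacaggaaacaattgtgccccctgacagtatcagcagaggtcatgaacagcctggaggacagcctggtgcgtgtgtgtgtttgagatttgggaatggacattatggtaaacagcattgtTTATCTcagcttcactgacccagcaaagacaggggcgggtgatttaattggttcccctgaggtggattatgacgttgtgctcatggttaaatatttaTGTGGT
Each Il1rl1 window held 1 GATA match, 217 bases before the first of these start sites and 103 bases before the second, and the second window also held a RUNX match 6 bases before the start. The Il1rl2 window held 1 RUNX match, 247 bases before the start. The Il18rap window held no match to these letters, nor did any of the 4 windows match the T-box (GGTGTGA), AP-1 (TGANTCA), kappaB (GGGNNNNNCC) or STAT (TTCNNNGAA) letters. Of the windows of other cluster members, which are not printed, that of Il18r1 at chr1:40465756-40466005 held 1 kappaB and 2 STAT matches, and its other 2 windows held none. That of Il1r2 held 1 STAT match, and 1 of the 2 Il1r1 windows held 1 kappaB match. Outside the cluster, the window of Il1rap, which was not called, held 6 kappaB matches, some of them overlapping. That of Myd88 held 1 T-box and 1 STAT match. Among 32851 upstream windows of mouse genes, 9.99% held the GATA letters, 14% the RUNX, 45.8% the kappaB, 7.02% the STAT, 6.75% the AP-1 and 3.33% the T-box letters. In the printed windows no match overlapped another, and the letters are a description of the sequence, not of binding. Gene counts do not separate the start sites, nor the membrane and soluble forms of ST2.

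Among the ligand-binding chains, Il18r1 and Il1rl2 had the larger rises over all 6 samples. Il18r1 (chr1:40465552-40500854), the chain that binds IL-18, read 96.8, 95.2 and 139 CPM in WT and 294, 257 and 270 CPM in KO. The KO samples all lay well above WT, and WT3 was the highest of the WT samples. Its mean went from 110 ± 25.1 to 274 ± 18.5 CPM (SD, n = 3), a 2.48-fold rise (log2 fold change 1.31 with an SE of 0.15, adjusted p by edgeR = 0.000559), and without WT3 the rise was 2.84-fold. Il1rl2 (chr1:40324589-40367555), the IL-36 receptor, was far less abundant in WT per kilobase of exon (0.537 CPM per kilobase against 22.9 for Il18r1). It read 3.69, 3.29 and 3.995 CPM in WT and 19.4, 17.3 and 17.0 CPM in KO. The groups were separated by more than the whole range within either group. The mean went from 3.66 ± 0.355 to 17.9 ± 1.30 CPM (SD, n = 3), which is 4.88-fold (log2 fold change 2.29 with an SE of 0.14, adjusted p by edgeR = 3.69e-05).

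Il1rl1 (chr1:40404864-40465418), which encodes the IL-33 receptor ST2, read 51.2, 55.8 and 60.1 CPM in WT and 91.6, 89.0 and 86.3 CPM in KO. The groups did not overlap, and both had a narrow range. The mean went from 55.7 ± 4.44 to 89.0 ± 2.69 CPM (SD, n = 3), a 1.60-fold rise (log2 fold change 0.68 with an SE of 0.08, adjusted p by edgeR = 0.000597). This fold was close to the cutoff: when the test asked whether the fold exceeded 1.5 (edgeR's glmTreat), the adjusted p was 0.276 and the call was lost, in a test that called 12.4% of all genes.

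Il1r1 (chr1:40222480-40316201), the receptor for IL-1, depended on a single library. Its counts were 46, 47 and 579 in WT1 to WT3 and 356, 413 and 378 in KO1 to KO3, or 1.25, 1.43 and 17.4 CPM against 9.74, 10.3 and 10.7 CPM. The KO samples lay close together, WT1 and WT2 lay far below them, and WT3 lay above all 3. With all 6 samples the log2 fold change was 0.62 (SE 0.88) and the gene was not called (adjusted p by edgeR = 0.622). Without WT3 the log2 fold change was 2.93 (with an SE of 0.21, adjusted p by edgeR = 2.34e-08), a 7.62-fold difference that was called.

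**Figure D1:**
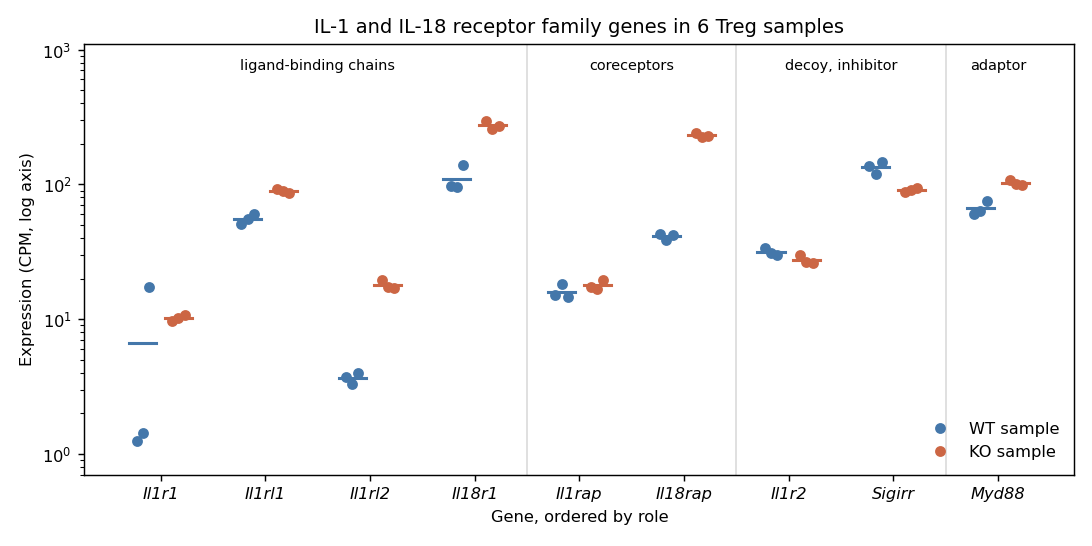
Expression of the 9 receptor family genes (CPM, log axis) in 3 WT and 3 KO samples, in the order of the genes' roles, with each point a sample and each line a group mean. Il18rap, Il1rl2, Il18r1, Il1rl1 and Myd88 have every KO point above every WT point, Sigirr has every KO point below, and 1 WT sample of Il1r1 stands at 17.4 CPM against 1.25 and 1.43 CPM in the other WT samples.

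The coreceptors differed from each other. Il18rap (chr1:40515362-40551707), the signalling partner of the IL-18 receptor, read 42.5, 38.5 and 42.4 CPM in WT and 239, 223 and 230 CPM in KO. Each KO sample was more than 5 times each WT sample. The mean went from 41.2 ± 2.26 to 230 ± 8.26 CPM (SD, n = 3), a 5.60-fold rise (log2 fold change 2.49 with an SE of 0.07, adjusted p by edgeR = 1.72e-06). Il1rap (chr16:26581509-26730128), the partner shared by the IL-1, IL-33 and IL-36 receptors, read 15.2, 18.4 and 14.5 CPM in WT and 17.4, 16.8 and 19.5 CPM in KO. Its groups overlapped, and its log2 fold change of 0.16 (SE 0.13) was not called (adjusted p by edgeR = 0.362). A lncRNA, Gm20319, overlaps Il1rap in the annotation.

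The decoy and the inhibitor were not called. Il1r2 (chr1:40084692-40125230), the IL-1 decoy, read 33.7, 31.2 and 29.9 CPM in WT and 30.1, 26.4 and 26.0 CPM in KO. WT3 lay just under KO1, so the groups overlapped, and the log2 fold change was -0.20 (with an SE of 0.10, adjusted p by edgeR = 0.143). Sigirr (chr7:141091175-141100597), the inhibitory family member, read 137, 119 and 146 CPM in WT and 87.5, 91.3 and 93.6 CPM in KO. Every KO sample lay below every WT sample. The log2 fold change was -0.56 (with an SE of 0.09, adjusted p by edgeR = 0.00192), and the gene missed the fold cutoff alone, with WT 1.47-fold above KO. It was called with library totals unscaled (log2 fold change -0.60, adjusted p by edgeR = 0.00105) and without WT2 (-0.64, 0.0015).

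Myd88 (chr9:119335934-119340018), the adaptor through which the signalling receptors of the family act, read 60.3, 62.9 and 75.6 CPM in WT and 108, 101 and 98.3 CPM in KO. The groups did not overlap. The mean went from 66.3 ± 8.18 to 102 ± 4.80 CPM (SD, n = 3), a 1.54-fold rise (log2 fold change 0.63 with an SE of 0.10, adjusted p by edgeR = 0.00196). The fold was just past the cutoff, and without WT1 it dropped under it (log2 fold change 0.56, adjusted p by edgeR = 0.0075).

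The 6 members on chromosome 1 occupy 467.0 kb (chr1:40084692-40551707) in the order Il1r2, Il1r1, Il1rl2, Il1rl1, Il18r1 and Il18rap, all on the plus strand. They are the only protein-coding genes that RefSeq places between those ends. Only 133 bases separate the end of Il1rl1 from the start of Il18r1. The 4 genes of the distal part, from Il1rl2 to Il18rap, were called higher, and Il1r2 and Il1r1 at the other end were not. This split rests on WT3: without it Il1r1 was called too, at a log2 fold change of 2.93, and 5 of the 6 genes were called. The fold changes did not follow the order of the genes: Il1rl1 lies between Il1rl2 and Il18r1 and had the smallest fold change of these 4. Within 500 kb on either side lie 8 more protein-coding genes, of which 2 had rows in the table. Map4k4, a kinase gene before Il1r2, had a log2 fold change of -0.04 (with an SE of 0.07, adjusted p by edgeR = 0.675), and Mfsd9, a transporter-like gene beyond Il18rap, had -0.10 (with an SE of 0.37, adjusted p by edgeR = 0.865). Neither was called. The lncRNA Gm16894 overlaps the start of Il1r2, and the pseudogene Gm17970 lies within Il1rl2.

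**Figure D2:**
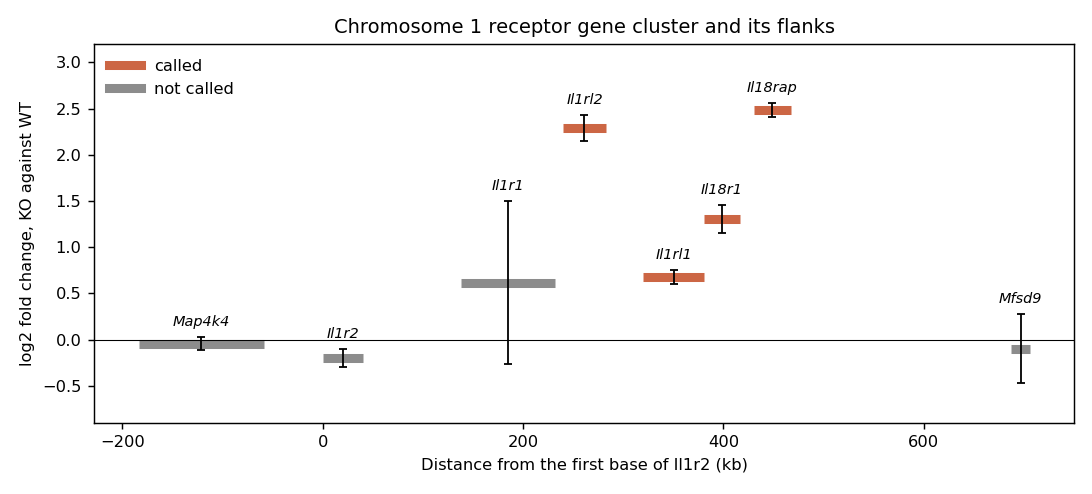
log2 fold change (KO against WT) of the 6 receptor genes on chromosome 1 and of the 2 neighbouring genes with rows in the table, against distance from the first base of Il1r2 in kb. Each horizontal bar spans a gene, vertical lines show the SE and colour marks the call. With all 6 samples the 4 called genes lie side by side at the Il18rap end, at log2 fold changes of 2.29, 0.68, 1.31 and 2.49, but Il1r1 next to them was called as well, at 2.93, without WT3, and both flanking genes are close to 0.

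Levels of different members were compared only as CPM per kilobase of exon. In WT Tregs the order of mean levels was Sigirr (43.9 ± 4.51), Myd88 (25.7 ± 3.18), Il18r1 (22.9 ± 5.21), Il1r2 (16.6 ± 1.03), Il1rl1 (8.08 ± 0.644), Il18rap (6.10 ± 0.335), Il1rap (1.41 ± 0.181), Il1r1 (1.05 ± 1.46) and Il1rl2 (0.537 ± 0.0521 CPM per kilobase, SD, n = 3). The sample ranges of Myd88 and Il18r1 overlapped, as did those of Il1rap with Il1r1 and of Il1r1 with Il1rl2. In KO Tregs the order was Il18r1 (56.8 ± 3.85), Myd88 (39.7 ± 1.86), Il18rap (34.1 ± 1.22), Sigirr (29.8 ± 1.02), Il1r2 (14.4 ± 1.17), Il1rl1 (12.9 ± 0.390), Il1rl2 (2.63 ± 0.190), Il1r1 (1.61 ± 0.0769) and Il1rap (1.58 ± 0.128 CPM per kilobase). Only the last pair overlapped, and it changed places when the longest coding transcript was used as the length. The inhibitor Sigirr thus stood first of the 9 in WT and below Il18r1, Myd88 and Il18rap in KO, whereas the IL-18 receptor chain Il18r1 stood below Sigirr and Myd88 in WT and first in KO.

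The chains of a receptor did not keep their proportions. The ratio of Il18rap to Il18r1 (levels per kilobase) was 0.313, 0.289 and 0.217 in WT and 0.581, 0.618 and 0.606 in KO. In every KO sample the coreceptor was thus nearer to its ligand-binding chain than in any WT sample. The ratio of Il1rl2 to Il1rap was 0.406, 0.299 and 0.459 in WT and 1.86, 1.72 and 1.45 in KO, so the IL-36 receptor was below its coreceptor in WT and above it in KO. With the longest coding transcripts as lengths these KO ratios were 1.29, 1.19 and 1.01. The ratio of Il1rl1 to Il1rap was 5.57, 5.01 and 6.82 in WT and 8.70, 8.73 and 7.27 in KO. These groups did not overlap, but WT3 and KO3 were close.

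The balance between inhibitor and ST2 also differed. The ratio of Sigirr to Il1rl1 was 6.06, 4.82 and 5.49 in WT and 2.16, 2.32 and 2.46 in KO. Sigirr stayed above Il1rl1 in every sample, by less in each KO sample. The ratio of the decoy Il1r2 to Il1r1 was 90.0, 72.7 and 5.73 in WT and 10.3, 8.57 and 8.10 in KO. WT3 lay below all KO samples and the other WT samples far above them, so the groups overlapped. Summed by role, the ligand-binding chains went from 32.6 ± 7.26 to 73.9 ± 4.22 CPM per kilobase (SD, n = 3), mostly Il18r1. The coreceptors went from 7.51 ± 0.160 to 35.7 ± 1.24 CPM per kilobase, mostly Il18rap. The decoy and inhibitor together went from 60.5 ± 4.48 to 44.3 ± 0.365 CPM per kilobase, mostly Sigirr, and neither gene was called. Each sum thus mainly follows a single gene. These ratios and sums are built from the members' own values and carry no test.

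**Figure D3:**
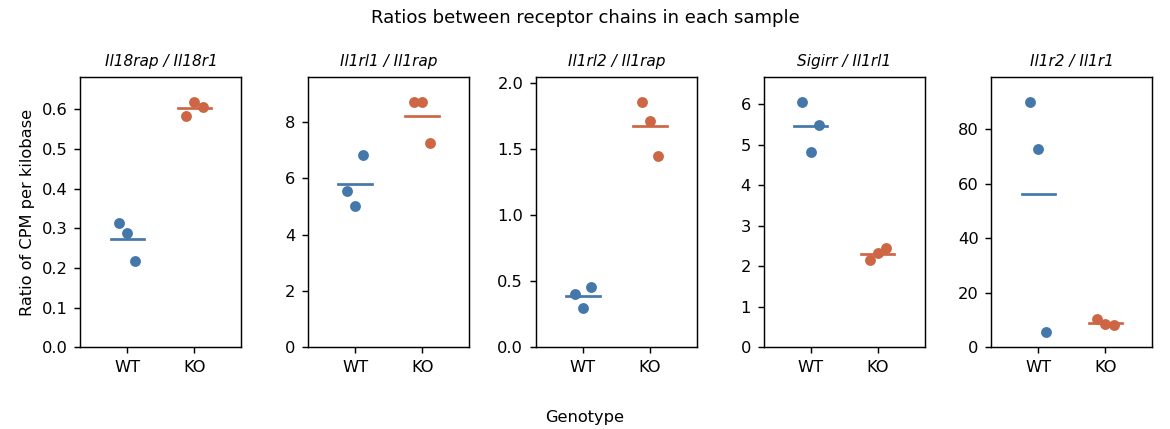
Ratios between the levels (CPM per kilobase of exon) of 5 pairs of receptor chains in each sample, with each point a sample and each line a group mean, on axes that start at 0. The WT and KO points do not overlap for Il18rap to Il18r1, Il1rl1 to Il1rap, Il1rl2 to Il1rap and Sigirr to Il1rl1, and for Il1r2 to Il1r1 the WT3 sample, at 5.73, lies below the KO samples.

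The other genes of the pathway were described by 6 lists with 66 genes, of which 55 had rows and 54 were tested. The call took in 18 of the 54 (33.3%), 14 higher and 4 lower, and their median log2 fold change was 0.25, beside 24.4% and -0.04 over all genes. These lists were drawn up with earlier results of these samples known, and their counts describe them only. The counts of each list and marker set below are likewise to be read beside 24.4% of all genes (11.9% higher and 12.5% lower).

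Of 11 ligands and soluble antagonists, 5 were tested and 3 were called, all higher. Il1b, the IL-1 beta gene, had counts of 0, 5 and 0 in WT and 14, 53 and 32 in KO (log2 fold change 4.05 with an SE of 1.09, adjusted p by edgeR = 0.0207). These were very low counts in both groups, and the log2 fold change was 3.46 without WT1 and 7.99 without WT2, which leaves WT libraries with 0 counts, so that this last value depends on the fit's prior count. Il1rn, the soluble IL-1 receptor antagonist, had counts of 22, 8 and 25 in WT and 78, 60 and 115 in KO (log2 fold change 2.10 with an SE of 0.51, adjusted p by edgeR = 0.0143). Il18bp, which encodes the soluble protein that binds and neutralises IL-18, had a mean of 5.22 ± 0.479 CPM in WT and 10.9 ± 0.800 CPM in KO (SD, n = 3), a 2.10-fold rise (log2 fold change 1.07 with an SE of 0.15, adjusted p by edgeR = 0.00118). Il1f9, the IL-36 gamma gene, had counts of 35, 24 and 14 in WT and 55, 36 and 49 in KO and was not called (adjusted p by edgeR = 0.18). Il18 was not called either (counts of 41, 67 and 21 in WT and 37, 36 and 34 in KO), and it overlaps Bco2 and Tex12. Il1a, Il33, Il1f6, Il1f8, Il1f5 and Il1f10 had no row among the genes analysed here.

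Of the 7 genes that process these ligands, 3 were called, all higher. Casp1, the protease that matures IL-1 beta and IL-18, had counts of 168, 153 and 186 in WT and 837, 987 and 865 in KO. The groups were far apart, and the mean level went from 4.94 ± 0.566 to 24.0 ± 0.948 CPM (SD, n = 3), a 4.86-fold rise (log2 fold change 2.28 with an SE of 0.13, adjusted p by edgeR = 2.53e-05). Nlrp3, an inflammasome sensor, had counts of 0, 8 and 5 in WT and 75, 75 and 58 in KO (log2 fold change 3.81 with an SE of 0.79, adjusted p by edgeR = 0.00717), which was 3.22 without WT1 and 4.61 without WT2. Casp4, the caspase of the noncanonical inflammasome, had a log2 fold change of 0.78 (with an SE of 0.23, adjusted p by edgeR = 0.0317), and the call was lost without WT2 (adjusted p by edgeR = 0.071, log2 fold change 0.58) and without KO1 (0.108, 0.72). Pycard, Gsdmd, Casp8 and Nlrp1b were not called, with log2 fold changes of 0.27, -0.09, -0.16 and -0.68.

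The proximal signalling genes carry the signal from MYD88 to NF-kappaB and the MAP kinases. Of 19 tested, 2 were called higher and 1 lower (median log2 fold change 0.11), a smaller share than the 24.4% of all genes. Irak3, an inhibitory member of the IRAK family, had counts of 39, 45 and 83 in WT and 293, 311 and 222 in KO (log2 fold change 2.16 with an SE of 0.33, adjusted p by edgeR = 0.0019). All KO samples were above all WT samples. Map3k8, a kinase that links these receptors to ERK, went from 61.0 ± 7.02 to 102 ± 1.33 CPM (SD, n = 3; log2 fold change 0.75 with an SE of 0.09, adjusted p by edgeR = 0.000676). Peli3, an E3 ubiquitin ligase of the Pellino family that acts on IRAK proteins, had counts of 75, 59 and 30 in WT and 6, 5 and 8 in KO (log2 fold change -3.18 with an SE of 0.52, adjusted p by edgeR = 0.00249). The other 16 lay within log2 fold changes of -0.56 (Ikbkb) and 0.52 (Tab3), among them Irak1 at -0.21, Irak4 at -0.19 and Traf6 at 0.38. Small changes were not always absent ones: Ikbkb and Tab3 missed the fold cutoff alone (adjusted p by edgeR = 0.000971 and 0.00237). For 15 of the 19 genes the groups did not overlap, in one direction or the other. Over all genes, KO lay above WT for 26.2% and below for 27.6%. Peli2 had no row among the genes analysed here.

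Among Toll-like receptors and the other TIR adaptors, most of which share MYD88 with the family, 14 were tested, 4 were called higher and 1 lower (median log2 fold change 0.38). Tlr13, a sensor of bacterial RNA, had counts of 10, 1 and 3 in WT and 48, 36 and 41 in KO (log2 fold change 3.04 with an SE of 0.68, adjusted p by edgeR = 0.00995). Cd180, a TLR-related surface protein, had counts of 7, 2 and 6 in WT and 46, 33 and 49 in KO (log2 fold change 2.97 with an SE of 0.56, adjusted p by edgeR = 0.0045). Tirap, the adaptor that bridges MYD88 to some of these receptors, had a log2 fold change of 0.86 (with an SE of 0.25, adjusted p by edgeR = 0.029), and the call was lost without KO2 (adjusted p by edgeR = 0.11). Tlr6 (0.74, adjusted p by edgeR = 0.0972) was called higher and Tlr1 (-0.59, adjusted p by edgeR = 0.00116) lower. These 2 calls were close to the cutoffs, the genes are near relatives that can share reads, and Tlr6 also overlaps Fam114a1. Tlr6 lost its call without WT1, without WT3 and without each of KO1, KO2 and KO3, and Tlr1 lost it without WT1 and without KO1 (log2 fold changes of -0.52 and -0.58). Tlr3, Tlr4 and Tlr12 were not called with all samples (log2 fold changes of 0.27, 1.37 and 0.48) but were called higher without WT3 (1.79, 2.61 and 1.30, with adjusted p by edgeR of 0.0437, 0.00781 and 0.0133). Tlr13 had a log2 fold change of 4.14 without WT1. Of the neuronal family members, Il1rapl2 had a row but too few counts to be tested, and Il1rapl1, like Tlr5, Tlr8 and Tlr11, had no row among the genes analysed here.

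The genes known from ST2+ Tregs moved in different directions. Of 9 tested, 2 were called higher and 2 lower (median log2 fold change 0.14). Gata3, a transcription factor of ST2+ Tregs, went from 142 ± 8.45 to 244 ± 18.8 CPM (SD, n = 3; log2 fold change 0.78 with an SE of 0.08, adjusted p by edgeR = 0.000385). Areg, the amphiregulin gene, had counts of 32, 6 and 200 in WT and 585, 494 and 503 in KO. WT3 was again the highest WT sample, and the log2 fold change was 2.60 (with an SE of 0.89, adjusted p by edgeR = 0.0508) with it and 4.70 without it. The call was lost without WT1 (adjusted p by edgeR = 0.132) and without any of the KO samples (0.107 to 0.136).

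Ccr8, a chemokine receptor of tissue Tregs, dropped from 67.2 ± 2.53 to 28.5 ± 1.90 CPM (SD, n = 3; log2 fold change -1.24 with an SE of 0.08, adjusted p by edgeR = 4.69e-05). Klrg1, a surface receptor of terminally differentiated Tregs, dropped from 29.8 ± 3.28 to 15.3 ± 0.708 CPM (log2 fold change -0.96 with an SE of 0.11, adjusted p by edgeR = 0.000536). So ST2 itself, Gata3 and Areg were higher while Ccr8 and Klrg1 were lower in the same samples. The study also counts Gata3, beside Il4, Il5 and Il13, in a Th2 signature that was raised in KO Tregs. Batf had a log2 fold change of 0.51 and missed the fold cutoff (adjusted p by edgeR = 0.0044), and Rora and Pparg were not called (0.13 and 0.23). Nfil3 and Il10 were not called with all samples (-0.08 and 0.14) but were called higher without WT3 (0.81 and 0.85).

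**Figure D4:**
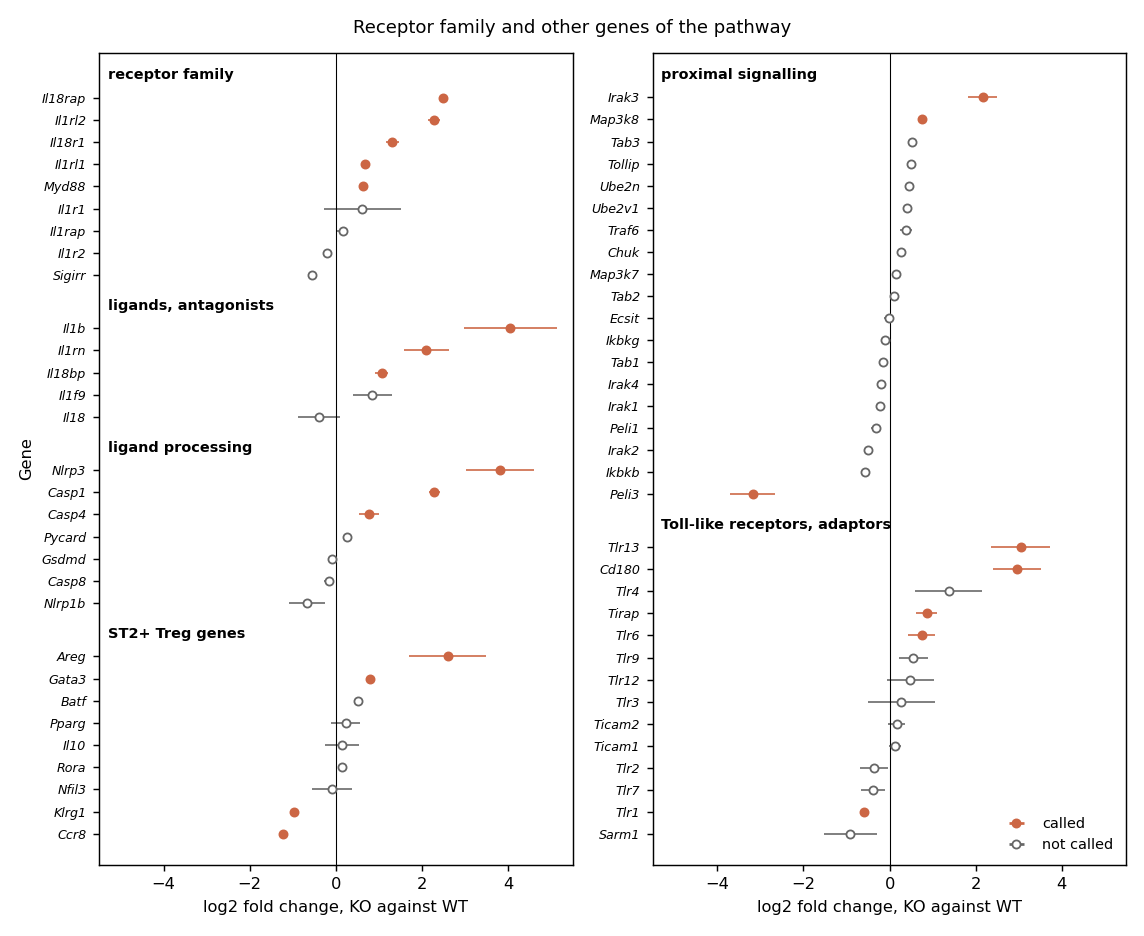
log2 fold change (KO against WT) with its SE for the 9 receptor family genes and the 54 tested pathway genes, sorted within each list, with filled points for called genes. Of the 19 proximal signalling genes, the 16 not called lie between -0.56 and 0.52, with Irak3 at 2.16 and Peli3 at -3.18. Il1b, Nlrp3 and Areg have wide SEs of 1.09, 0.79 and 0.89.

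Several genes above are also expressed by other leukocytes, so markers of such cells were summed in each sample. Myeloid markers (6 of 7 with a row, all 6 called higher) summed to 16.8, 19.9 and 8.53 CPM in WT and 49.6, 44.4 and 42.1 CPM in KO. S100a8 and S100a9 had 0 counts in every WT sample and 46 to 103 in KO, and Lyz2 lost its call without WT3. The study reports S100a8 and S100a9 as high in a Treg subset that accumulated in single-cell data of younger KO mice. The part of that subset in these counts was not tested. Dendritic markers (1 of 4 called higher, Itgax) summed to 1.98 to 3.94 CPM in WT and 8.81 to 11.5 CPM in KO. Markers of NK cells and ILC1, which carry the IL-18 receptor, summed to 3.59 to 5.83 CPM in WT and 14.9 to 16.2 CPM in KO. Klrb1c and Eomes were called higher among 3, and Ncr1 was not called (adjusted p by edgeR = 0.13). Most of the KO sum was Eomes, with a mean of 11.3 CPM, beside 0.940 CPM for Ncr1. The part of these cells in the results for Il1b, Il1rn, Casp1, Nlrp3, Tlr13, Cd180 and the receptor genes was not tested.

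Mast cells and ILC2 are known for high ST2. Of the mast cell and basophil markers, Fcer1a, Ms4a2, Cpa3 and Mcpt8 had no row among the genes analysed here, and Kit was not called (24.3 ± 5.62 CPM in WT and 23.8 ± 2.59 CPM in KO; SD, n = 3). ILC2 markers summed to 29.3 to 31.3 CPM in WT and 13.3 to 18.1 CPM in KO. Arg1, Calca and Nmur1 were called higher and Il17rb and Hpgds lower. Most of the WT sum was Il17rb (mean 21.04 CPM in WT and 7.22 CPM in KO) and Hpgds (8.12 and 1.93 CPM). Arg1 (0.533 and 2.9 CPM), Nmur1 (0.339 and 2.97 CPM) and Calca (0.009 and 1.22 CPM) rose from low levels. The drop of the sum thus follows Il17rb and Hpgds alone. B cell markers summed to 18.0 to 20.1 CPM in WT and 12.1 to 12.6 CPM in KO (Cd79b called lower, 1 of 5), and CD8 T cell markers to 9.32 to 13.2 and 12.02 to 12.7 CPM (Cd8a called higher, 1 of 2). Stromal and endothelial markers summed to 193 to 205 CPM in WT and 138 to 147 CPM in KO. Nearly all of this was Pecam1 (mean 197 CPM in WT and 137 CPM in KO), and the drop of the sum follows it alone. Col1a1 was low and not called (2.59 and 2.42 CPM). Pdgfrb was called higher, 1 of 3, with counts of 0, 0 and 26 in WT and 79 to 93 in KO. The part of any of these cells in the values of Il1rl1 was not tested.

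The genes whose profile over the 6 samples was most like that of Il18rap were sought, by the root mean square distance of centred log2 CPM, among the 11819 genes whose mean reached 1 CPM. The nearest was a fellow member, Il1rl2, at a distance of 0.12. Rnf157, a RING finger gene, followed at 0.13 (12.6, 9.35 and 9.58 CPM in WT and 53.7, 55.0 and 56.9 CPM in KO). Hs3st3b1, a heparan sulfate sulfotransferase, was also at 0.13 (3.50, 3.23 and 2.79 CPM in WT and 16.3, 16.6 and 16.1 CPM in KO). Over 6 samples in 2 groups such a distance mostly reflects a difference between genotypes of like size.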

How the data were processed

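Bulk RNA-Seq of CD4+YFP+CD25+ Tregs gave 3 WT and 3 KO libraries, grouped by the titles in the labels. The authors filtered reads with SOAPnuke, aligned them to mm10 with HISAT2 and quantified genes with StringTie; they deposited raw counts per gene for each sample, and the strand setting and annotation are not given in the sources used here. All 6 columns matched a sample (0 did not). Of 13709 rows, 13594 passed filterByExpr (minimum count 10) and 115 were removed; all 9 members passed, the lowest of them (Il1r1) with 1819 counts over all samples, so the filter excluded no member. Every row in the table summed to at least 60.

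Genes were tested with edgeR 4.0.16 (R 4.3.3; quasi-likelihood, TMM factors, genotype only, two-sided, Benjamini-Hochberg adjustment over all genes); the called fold, p and adjusted p cutoffs follow the study. DESeq2 1.42.0, other scalings and filters, a replicate block and leaving out each sample were alternatives, and the code was tested on simulated counts. A count of 3, below which a gene could not be told from absent, equals 0.0747 to 0.0913 CPM; this covers counting error only. Positions, names and promoter sequences came from RefSeq (GRCm38.p6; 8 of 9 members had a promoter window) and exon lengths from GENCODE. Of 13680 symbols, 13669 were found in RefSeq, and Il1f5, Il1f6, Il1f8 and Il1f9 are its symbols for the IL-36 genes.

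The members, lists and tests were chosen with earlier results of these data known. Named were Zfp335, the members, each called gene of a pathway list, all ligands, table genes near the cluster and the 3 nearest profiles of the called member with the largest rise; no member was called lower. Flank genes and genes of a list that were not called were named after their values were seen.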

Additional observations from a re-analysis of the deposited data

How the results depend on the processing

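No member changed direction under any alternative. Among all genes, 5244 were called when only an adjusted p under 0.05 was asked and 1686 by glmTreat against a fold of 1.5, beside 3318; glmTreat called 3 members (Il18rap, Il1rl2 and Il18r1), beside 5. Requiring 10 counts in every sample left 10 pathway genes called, beside 18, since 7 of these had too few counts in a sample to be tested and Tlr1 missed the fold cutoff. Leaving out 1 sample at a time gave 2867 to 3667 genes, 4 to 6 members and 15 to 22 pathway genes, the upper value of the first and last without WT replicate 3. Il18rap, Il1rl2, Il18r1 and Il1rl1 stayed called in each of those 6 fits, Myd88 in all but that without WT1, Sigirr was called only without WT2 and Il1r1 only without WT3. Il18, at a log2 fold change of -0.40, ranged from -0.72 to 0.13 in those fits, turned positive without WT2 and was called in none. DESeq2 called 3370 genes and 5 members, and gave Il1r1 no adjusted p.

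Samples that share a replicate number did not deviate together (correlations of 0.04, 0.04 and -0.01). With so few samples per group, such low values cannot exclude that same-numbered samples were paired by litter or processing. A replicate block called 3190 genes, 3100 of them shared with the fit without it, and 5 members. Low counts limit Il1b, Nlrp3, Tlr13, Cd180 and Peli3, whose WT or KO counts were at or under 10.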

Other observations

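Il1r1 in WT3 was followed further after its values were seen. The genes whose profile over the 6 samples was nearest to that of Il1r1 were Cxcl2, Serpinb1a and Dscam, at root mean square distances of 0.24, 0.30 and 0.32 on the log2 scale among 11819 genes. Cxcl2, a chemokine gene, read 0.163, 0.183 and 2.16 CPM in WT1 to WT3 and 1.92, 1.99 and 2.07 CPM in KO1 to KO3. Serpinb1a, a protease inhibitor gene, read 0.543, 0.822 and 6.58 CPM in WT and 3.48, 4.03 and 3.18 CPM in KO. Dscam, a cell adhesion gene, read 0.869, 1.13 and 10.1 CPM in WT and 3.89, 5.28 and 5.67 CPM in KO. In each, WT3 lay above the KO samples and the other WT samples below them, and none was called with all 6 samples. Since these genes were picked for their likeness to Il1r1, that pattern follows from the choice and is no separate evidence.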
